A study of Mus musculus with 2 samples.

Results

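The genes described here are the Wnt ligands, their receptors and the secreted proteins that modulate them, in the heart ventricle of mouse embryos with and without the long non-coding RNA gene Fendrr. Members were all genes in the table named as a Wnt (Wnt1 to Wnt16), a Frizzled receptor (Fzd1 to Fzd10), Sfrp1 to Sfrp5 or Dkk1 to Dkk4, together with Frzb, Wif1, Lrp5, Lrp6, Axin2, Lef1, Tcf7, Ctnnb1, Rspo1, Rspo2 and Rspo3. This gave 48 of 23276 genes: 19 ligands, 10 Frizzled receptors, 2 co-receptors, 3 R-spondins, 6 ligand-binding antagonists, 4 Dickkopf genes and 4 nuclear effectors or feedback genes.

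One library came from wild-type (WT) embryos and the other from embryos in which Fendrr had been knocked out on both alleles by homologous recombination (KO). All embryos were on a mixed C57BL/6 x 129SV background, were taken at stage E12.5 (days of embryonic development), and were made by tetraploid complementation, so that the fetus comes from cultured stem cells while the tetraploid host supplies mainly extraembryonic tissue. The number of stem cell clones behind each genotype was not given in the sources used here. RNA of 4 pooled ventricles per genotype was depleted of ribosomal RNA and sequenced as 1 strand-specific library, each on its own run. With 1 library per genotype there is no replicate and no test of genotype, genotype and run cannot be told apart, and "higher" and "lower" below compare these libraries only. In such bulk tissue, fewer cells of a type and less RNA per cell cannot be told apart.

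Wnt proteins are lipid-modified secreted ligands that bind Frizzled receptors. In the branch that runs through β-catenin, a ligand bridges a Frizzled to the co-receptors Lrp5 or Lrp6, the complex that degrades β-catenin is held back, and β-catenin enters the nucleus to act with Lef1 and the related Tcf proteins. Other branches use Frizzleds without β-catenin to orient cells within a tissue. In the embryonic heart, Wnt signals are known to take part in the growth of progenitor cells, in the outflow tract and in the cushions that form the valves.

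Levels are given in FPKM, which scales the fragments of a gene to its transcript length and to all mapped fragments, so that levels of different genes can be compared. Differences are given as log2((KO + 1)/(WT + 1)) for genes whose mean over both libraries was 1 FPKM or more, which shrinks differences at low levels, or as the plain ratio of KO FPKM to WT FPKM. Over all 11349 such genes the median log2 ratio was -0.11, the median FPKM ratio was 0.915, and 95% of genes lay between -0.64 and 0.49. A member with a log2 ratio near -0.11 therefore lay where most genes did.

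The low values of the table show how many reads stand behind a level. When FPKM was multiplied by the annotated transcript length, the values of genes with a single annotated length fell on whole multiples of 1 amount, which is what 1 read is worth. In the WT library 52.5% of 2230 genes between 1 and 20 reads lay within 0.03 reads of a whole number, as did 53.1% of 2324 genes in the KO library, where 6% of the scale lies that close. On a transcript of 1 kb, 1 read was worth 0.0764 FPKM in WT and 0.0608 in KO, which corresponds to about 13100000 and 16400000 mapped fragments, a ratio of 1.26. Of 31 members with 1 annotated length and a value above 0 in both libraries, 9 gave whole read numbers in both by this rule, among them Sfrp1 with 1325 reads in WT and 1787 in KO, and Rspo1 with 68 and 84. Read numbers of the other members are estimates that hold as far as the annotated length matches the one the authors used. Intervals given with ratios below are 95% exact binomial (Clopper-Pearson) intervals of the read share turned into an FPKM ratio. They cover counting error only, since reads without molecular identifiers are not independent molecules, and hold nothing of the variation between embryos. Exons of 8 members (Axin2, Fzd5, Fzd6, Lef1, Rspo3, Sfrp2, Wnt11 and Wnt7b) overlap a gene on the opposite strand in GENCODE M21. The libraries kept the strand, but whether the counting used it was not given in the sources used here, so reads of those partners may be counted in these members.

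**Figure D1:**
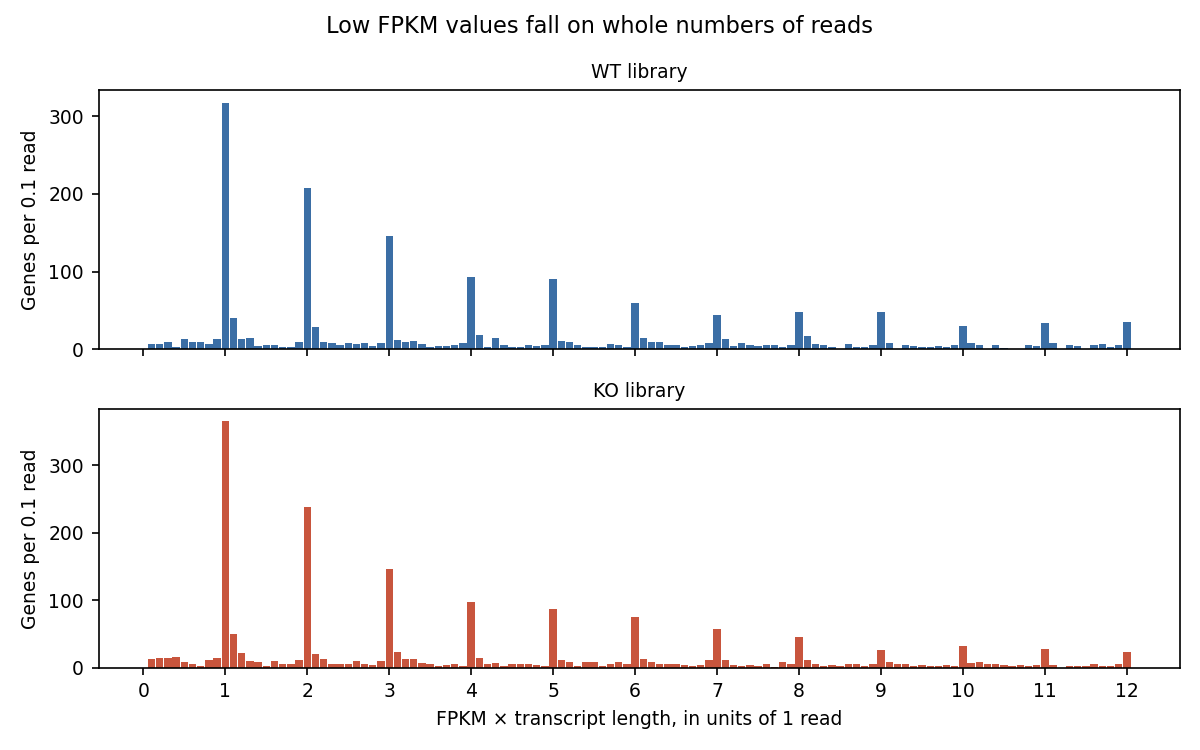
Number of genes (vertical axis, per 0.1 read) against FPKM times transcript length in units of 1 read (horizontal axis), for genes with 1 annotated length, in the WT library (top) and the KO library (bottom). Peaks stand at whole read numbers in both libraries, the tallest at 1 read with 317 genes in WT and 365 in KO.

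The tissue label was checked against marker genes for heart muscle only, and this sum cannot tell ventricle from other parts of the heart. Cardiomyocyte markers summed to 19871 FPKM in WT and to 21253 in KO, with none of the 7 at 0. The targeted gene could not be used to check the genotypes, since Fendrr itself had no row and the row of 1110050K14Rik, its older name, held a 0 for either library.

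On the log2(FPKM + 1) scale, no member with a mean of 1 FPKM or more was 2-fold apart between the libraries. Of the 48 members, 25 had a mean of at least 1 FPKM, and 0 of these 25 passed 2-fold in either direction, where 0.467% of all genes were higher and 0.388% lower by that limit. At 1.5-fold, Sfrp2 and Fzd1 were higher, 2 of 25, where 1.54% of all genes were, and Wnt2 was lower, 1 of 25, where 3.6% of all genes were. The median log2 ratio of the 25 members was -0.02, against -0.11 for all genes, and 19 of the 25 lay above that of all genes. On this scale Sfrp2, Wnt2, Fzd1 and Rspo3 lay furthest from 0 among the 25. By the plain FPKM ratio, which does not hold low levels down, Wif1, Sfrp2, Wnt16 and Wnt2 were furthest apart among the members with at least 3 estimated reads in each library.

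**Figure D2:**
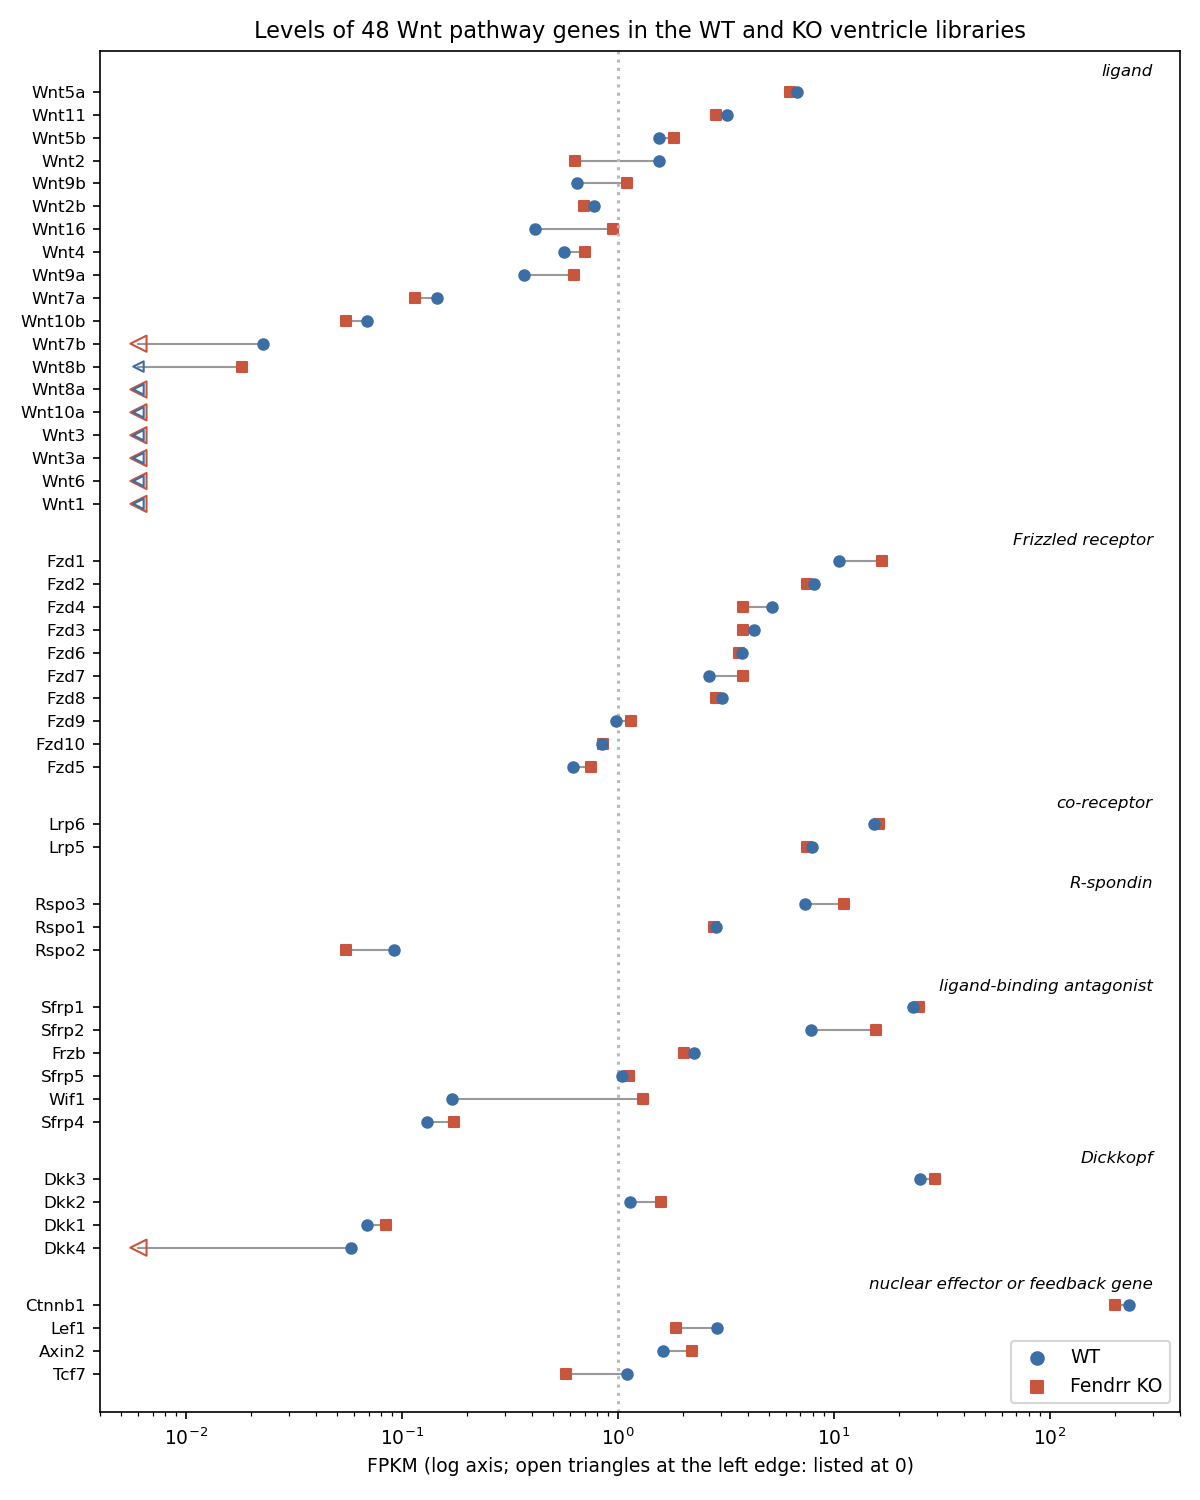
FPKM of each of the 48 members (log axis) in WT (blue circles) and KO (red squares), grouped by role and ordered by mean, with open triangles for values listed at 0 and a dotted line at 1 FPKM. Wif1, at 0.170 FPKM in WT and at 1.30 in KO, has the widest gap among members above 0 in both libraries.

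Among the ligands, Wnt5a and Wnt11 were the most abundant, both known mainly for signalling that does not run through β-catenin. Wnt5a was at 6.76 FPKM in WT and at 6.26 in KO, and held 42.1% and 39.6% of the summed FPKM of the 19 ligands. Wnt11, a ligand needed for outflow tract formation, was at 3.21 and 2.84 FPKM. Wnt5b, the close relative of Wnt5a, was at 1.55 and 1.82 FPKM. The interval of the FPKM ratio ran from 0.796 to 1.08 for Wnt5a, from 0.645 to 1.23 for Wnt11 and from 0.790 to 1.76 for Wnt5b, so each of these intervals held the median ratio of all genes. The summed level of all ligands was 16.1 FPKM in WT and 15.8 in KO.

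Wnt2, a ligand known from cardiac progenitors at the venous pole and from lung mesenchyme, was, among members above 0 in both libraries, the lowest in KO relative to WT. It was at 1.55 FPKM in WT and at 0.633 in KO, a log2 ratio of -0.65. It took the third place among ligands in WT and the eighth in KO. These places rest on close values, with Wnt5b at 1.547 FPKM in WT. In KO, Wnt4, Wnt2b and Wnt9a lay between 0.623 and 0.700 FPKM. The ratio of the Wnt2 values is that of 43 WT reads to 22 KO reads. The FPKM ratio of 0.407 had an interval from 0.230 to 0.670, computed from estimates of 46 and 23 reads. With a pseudocount of 0.1 in place of 1, its log2 ratio was -1.17, past the 2-fold limit, where 0.864% of all genes were lower. Wnt2b, the closest relative of Wnt2, was at 0.770 and 0.698 FPKM, close to the ratio of most genes. The second heart field factor Isl1 was also lower in KO, at 1.03 FPKM in WT and at 0.457 in KO, while the outflow and second heart field markers as a list, none of them at 0 in both libraries, summed to 18.3 and 20.5 FPKM, and the 2 of 5 with a mean of at least 1 FPKM both lay above the median of all genes. Of the atrial markers 3 of 5 lay above that median, and the list, with none at 0, summed to 3886 FPKM in WT and to 3073 in KO. The lower sum came from Myl4, at 2834 and 2244 FPKM, and Myl7, at 1001 and 773 FPKM. The other 3, Sln, Nr2f2 and Bmp10, were higher in KO. Whether the 5 genes of this list are confined to the atrium at E12.5 was not checked, so the list does not measure atrial tissue. The part of these tissues in the Wnt2 difference was not tested.

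Of the 7 ligands with a mean under 1 FPKM and a value above 0 in both libraries, 4 were higher in KO and 3 lower. Over all 3925 genes of this kind 49.9% were higher, a share near that of the ligands. Wnt16, known from bone and from the origin of blood stem cells, was at 0.413 FPKM in WT and at 0.949 in KO, values in the ratio of 9 to 26 reads. Its FPKM ratio was 2.30 with an interval from 1.04 to 5.58. Wnt9b, known as an inducer of kidney tubules, was at 0.643 and 1.10 FPKM, or 38 and 82 reads, a ratio of 1.72 with an interval from 1.16 to 2.59. Its relative Wnt9a was at 0.368 and 0.623 FPKM, or 16 and 34 reads, and its ratio of 1.69 had an interval from 0.908 to 3.28, which reached below the median ratio of all genes. Wnt4 was at 0.562 and 0.700 FPKM, with an interval of the ratio from 0.768 to 2.00 that also held that median ratio. The 3 lower ones were Wnt2b, Wnt7a and Wnt10b.

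The remaining ligands rested on few reads or none. Wnt7a gave 6 reads in each library (0.144 FPKM in WT, 0.115 in KO) and Wnt10b gave 2 in each (0.0686 and 0.0546 FPKM). Wnt8b was listed at 0 in WT, with 0.0180 FPKM or 1 read in KO, and Wnt7b at 0 in KO, with 0.0227 FPKM in WT. Wnt1, Wnt3, Wnt3a, Wnt6, Wnt8a and Wnt10a were listed at 0 in both libraries. If a listed 0 means that no read was counted, which the table does not say, 3 reads set the upper limit of these 6 genes between 0.0745 and 0.131 FPKM in WT and between 0.0593 and 0.104 FPKM in KO.

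Some of the ligands listed at 0 lie beside other ligands in the genome. By the RefSeq annotation of GRCm38, 4 pairs of Wnt genes are direct neighbours among protein-coding genes: Wnt9b with Wnt3, Wnt9a with Wnt3a, Wnt10b with Wnt1, and Wnt10a with Wnt6. In the first 3 pairs the gene of the Wnt9 or Wnt10 family had reads in both libraries and its neighbour was listed at 0 in both, although the 2 reads of Wnt10b cannot be told from 0 at this depth. In the last pair both genes were listed at 0.

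All 10 Frizzled receptor genes had a value above 0 in both libraries, and 8 had a mean of at least 1 FPKM. Fzd1 was the most abundant of them in both libraries, and it was the receptor furthest apart. It was at 10.6 FPKM in WT and at 16.7 in KO, a log2 ratio of 0.61 and an FPKM ratio of 1.58 with an interval from 1.43 to 1.75. It held 26.5% of the summed Frizzled FPKM in WT and 37.3% in KO. Fzd7, which belongs to the same subfamily, was at 2.64 and 3.79 FPKM, a ratio of 1.44 with an interval from 1.18 to 1.77. Fzd2, the remaining member of that subfamily, had a ratio of 0.924 with an interval from 0.804 to 1.06, at 8.11 FPKM in WT and at 7.49 in KO.

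Fzd4, known as the receptor of the Wnt-unrelated ligand Norrin in blood vessels, was lower in KO. It was at 5.14 FPKM in WT and at 3.80 in KO, a log2 ratio of -0.36 and an FPKM ratio of 0.738 with an interval from 0.644 to 0.844. Of the endothelial and endocardial markers, none of them at 0, 7 of 8 exceeded the all-gene median, and they summed to 222 FPKM in WT and to 229 in KO. By plain FPKM 5 of the 8 were higher in KO. Emcn, at 50.1 and 41.0 FPKM, was lower, as were Cdh5 and Nfatc1 by less. The part of these cells in the Fzd4 difference was not tested. Fzd3 and Fzd6, a pair known from planar cell polarity, were at 4.25 and 3.81 FPKM and at 3.74 and 3.63 FPKM. Fzd8 was at 3.01 and 2.84 FPKM, and Fzd9, Fzd10 and Fzd5 lay between 0.619 and 1.15 FPKM in both libraries. The summed level of the Frizzled genes was 39.9 FPKM in WT and 44.8 in KO, a difference of 4.93 FPKM, while Fzd1 alone differed by 6.15 FPKM.

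The co-receptor genes were among the members with the closest values. Lrp6, the co-receptor with the stronger role in the embryo, was at 15.4 FPKM in WT and at 16.2 in KO, on about 1888 and 2492 reads, and its FPKM ratio of 1.05 had an interval from 0.989 to 1.12. Lrp5 was at 7.92 and 7.48 FPKM, a ratio of 0.944 with an interval from 0.841 to 1.06.

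R-spondins are secreted proteins that strengthen Wnt signals by binding Lgr receptors and clearing the ubiquitin ligases Znrf3 and Rnf43 from the cell surface. Rspo3, known for its role in the growth of blood vessels, was at 7.37 FPKM in WT and at 11.1 in KO. Its log2 ratio was 0.53, and its FPKM ratio of 1.51 had an interval from 1.31 to 1.75. Rspo1 was at 2.83 and 2.79 FPKM. Rspo2 was at 0.0915 and 0.0546 FPKM, the ratio of 4 to 3 reads. Of the partners of the R-spondins, Lgr4 was at 15.4 FPKM in WT and at 11.7 in KO, Znrf3 at 1.27 and 1.31 FPKM, and Lgr5, Lgr6 and Rnf43 were at 0.386 FPKM or less in both libraries.

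The antagonists in the next group bind Wnt proteins directly. Sfrp2, which carries a Frizzled-like domain on a secreted protein, was at 7.79 FPKM in WT and at 15.7 in KO, on about 204 and 518 reads. Its log2 ratio was 0.93 and its FPKM ratio 2.02, with an interval from 1.72 to 2.39. With a pseudocount of 0.1 (where 0.864% of all genes were higher) its log2 ratio was 1.00, just past the 2-fold limit, and it was between 1.03 and 1.06 under 4 other scalings of the libraries. Sfrp1, the most abundant antagonist, was at 23.2 and 24.9 FPKM, a ratio of 1.07 with an interval from 0.999 to 1.15. The share of Sfrp2 in the summed FPKM of the 6 antagonists was 22.6% in WT and 34.8% in KO.

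Wif1, a secreted antagonist with a Wnt-binding domain of its own, had the largest ratio of all members. It was at 0.170 FPKM in WT and at 1.30 in KO, values in the ratio of 5 to 48 reads. The FPKM ratio was 7.64 with an interval from 3.12 to 25.1, computed from estimates of 5 and 49 reads. Its mean was under 1 FPKM, so that it was not among the 25 members counted above, and its log2 ratio of 0.98 is held down by the pseudocount. With a pseudocount of 0.1 and no filter it would pass the 2-fold limit, as 2.75% of all genes did in that direction and 2.16% in the other. Frzb was at 2.25 and 2.02 FPKM, Sfrp5 at 1.05 and 1.12 FPKM (26 and 35 reads) and Sfrp4 at 0.130 and 0.173 FPKM (3 and 5 reads).

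Markers of other cell types also differed between the libraries. They were counted where their mean was at least 1 FPKM and against the median log2 ratio of all genes, which has as many genes above it as below. Of the markers of cushion mesenchyme and fibroblasts 9 of 10 lay above it and none was at 0, and the list summed to 501 FPKM in WT and to 611 in KO. Dpt, the gene of the matrix protein dermatopontin, was the furthest apart of them at 4.95 and 10.4 FPKM, a log2 ratio of 0.93. The other 9 had log2 ratios between -0.12 (Dcn) and 0.45 (Postn, at 163 and 224 FPKM), with Col3a1 at 152 and 174 FPKM. Epicardial markers lay above the median in 4 of 7 cases, none at 0, and summed to 79.6 and 89.0 FPKM.

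Of the macrophage markers, none of them at 0, 6 of 7 exceeded the all-gene median, and they summed to 14.7 FPKM in WT and to 26.2 in KO. The complement gene C1qb, at 1.58 and 4.41 FPKM, and the protease gene Ctss, at 4.51 and 11.8 FPKM, were 2-fold higher. By plain FPKM 4 of the 7 were higher in KO. The others were lower: C1qc at 2.32 and 2.13 FPKM, Cd68 at 1.44 and 1.03 FPKM and Emr1 at 1.34 and 1.27 FPKM. The skeletal muscle markers summed to 46.8 and 85.8 FPKM, with Myf5 at 0 in both libraries. Nearly all of this sum was Ckm, a muscle creatine kinase gene that heart muscle also expresses, at 45.8 and 84.6 FPKM. The liver and yolk sac markers summed to 0.832 and 21.6 FPKM, with Alb at 0 in both. Most of that sum was Afp, at 0.110 FPKM in WT and at 16.6 in KO, and Ttr, the only other of the 7 with a mean of at least 1 FPKM, was at 0.438 and 1.79 FPKM. Of the 6 lung and foregut markers only Foxf1 had such a mean, at 0.0315 and 2.46 FPKM. The list summed to 0.175 and 2.53 FPKM, and nearly all of the KO sum was Foxf1. Nkx2-1, at 0.0675 and 0.0269 FPKM, and Tbx4, at 0.0761 and 0.0411 FPKM, were lower in KO. Sftpc, Foxa1 and Foxa2 were at 0 in both libraries. The part of these cell types in the higher values of Sfrp2, Rspo3, Fzd1 and Wif1 was not tested.

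Dickkopf proteins other than Dkk3 bind Lrp5 and Lrp6. Dkk3, the divergent member of the family, was the most abundant at 25.1 FPKM in WT and at 29.3 in KO. Its FPKM ratio of 1.17 rested on about 1103 and 1619 reads and had an interval from 1.08 to 1.26. Dkk2 was at 1.13 and 1.58 FPKM, or 55 and 96 reads, a ratio of 1.39 with an interval from 0.987 to 1.97. Dkk1, the classical inhibitor of the co-receptors, was at 0.0683 and 0.0842 FPKM, which is 2 to 3 reads in each library. Dkk4 had 1 read in WT (0.0582 FPKM) and was listed at 0 in KO.

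The nuclear effectors and feedback genes lay on both sides of the median of all genes. Ctnnb1, which encodes β-catenin, was the most abundant member at 232 FPKM in WT and at 201 in KO, a log2 ratio of -0.21 that was 0.10 below the median of all genes. Axin2, a scaffold of the degradation complex that is itself a common target of β-catenin, was at 1.62 FPKM in WT and at 2.20 in KO, a ratio of 1.36 with an interval from 1.04 to 1.79. Lef1, a DNA-binding partner of β-catenin and also a known target, lay on the other side at 2.86 and 1.86 FPKM, a ratio of 0.649 with an interval from 0.466 to 0.898. Tcf7, its relative with the same known roles, was at 1.10 and 0.574 FPKM, values in the ratio of 32 to 21 reads. Its ratio of 0.522 had an interval from 0.254 to 0.992, computed from the 25 and 16 reads that its shortest annotated length gives. The interval of Tcf7 from that length held the median ratio of all genes, and those of Axin2 and Lef1 did not. With its longest length Tcf7 would have 35.6 and 23.3 reads and a narrower interval, which was not computed.

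**Figure D3:**
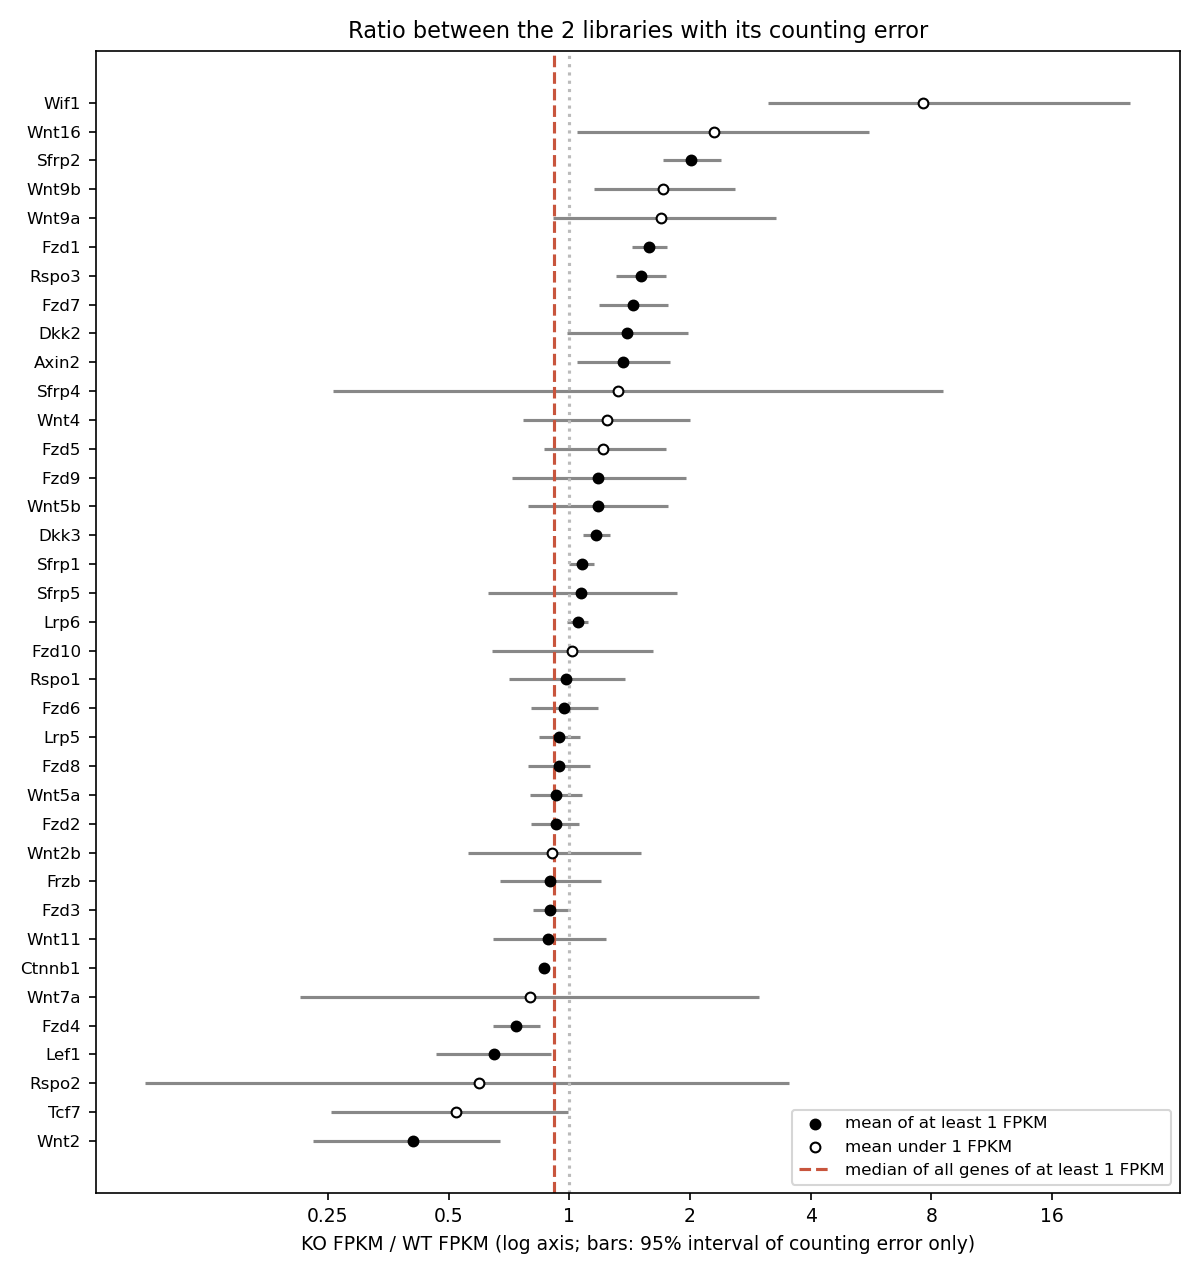
FPKM ratio of KO to WT (log axis) for the 37 members with at least 3 estimated reads in each library, with bars for the 95% interval of counting error only; filled points have a mean of at least 1 FPKM, open points a lower one, and the dashed line is the median ratio of all genes at 0.915. Wif1 lies furthest right at 7.64 and Wnt2 furthest left at 0.407.

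Other genes of the pathway were compared in 7 lists, which hold 82 genes in all, 61 of them with a mean of at least 1 FPKM. None of the 61 was 2-fold apart in either direction, and the counts that follow are over these 61. Of the 61 genes, 37 had ratios higher than the all-gene median, and their median log2 ratio was -0.05. Among genes for the secretion and stability of Wnt proteins, 5 of 6 lay above the median of all genes, with the glypican gene Gpc3 at 116 FPKM in WT and at 140 in KO. The heparan sulfatase genes Sulf2 and Sulf1 were at 46.2 and 47.5 FPKM and at 15.3 and 17.6 FPKM. Among the other secreted modulators the 3 of 9 genes with such a mean lay above it, with Cthrc1, which favours the planar polarity branch, at 11.1 and 14.9 FPKM and the inhibitor Apcdd1 at 8.68 and 10.3 FPKM. Under that mean, Sost was at 0.481 and 0.294 FPKM, and Dkkl1, with 0.254 FPKM in WT, had a 0 in KO.

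Alternative receptors and receptor turnover genes lay on the other side, with 3 of 8 higher than that median and a median of their own of -0.25. Ryk, a receptor-like protein that binds Wnt ligands, was at 32.4 FPKM in WT and at 26.0 in KO. Ror2, a receptor for Wnt5a, was at 5.87 and 4.27 FPKM, a log2 ratio of -0.38. Ptk7 was at 16.9 and 17.1 FPKM.

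Within the cell, 12 of 16 genes of the degradation complex and Dishevelled group lay above the median of all genes. The kinase genes Csnk1a1 and Csnk1e were at 145 and 135 FPKM and at 29.7 and 30.3 FPKM. The Dishevelled-binding gene Dact1 was at 7.34 and 10.4 FPKM (log2 ratio 0.45). The Dishevelled genes themselves went different ways, with Dvl1 at 5.98 and 3.96 FPKM (log2 ratio -0.49), Dvl2 at 4.37 and 5.88 FPKM (0.36) and Dvl3 at 1.99 and 1.85 FPKM. Nuclear effectors were split, 6 of 12 on either side, with Pygo1, a coactivator of β-catenin, at 2.63 and 3.80 FPKM, its relative Pygo2 on the other side at 4.99 and 3.38 FPKM and the β-catenin inhibitor Ctnnbip1 at 12.1 and 9.82 FPKM. In the same list Cby1 was at 22.8 and 24.2 FPKM and the corepressor Tle2 at 1.25 and 1.68 FPKM.

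Of the planar polarity genes 6 of 10 were higher than the all-gene median, with Daam1 at 31.6 and 30.6 FPKM, Prickle1 at 7.50 and 8.63 FPKM, Prickle2 at 2.45 and 3.30 FPKM and Fat4 at 3.85 and 4.93 FPKM. Scrib, which encodes a scaffold of cell polarity, was lower at 5.18 and 3.80 FPKM, a log2 ratio of -0.36. Of the known target genes outside the members, 4 of 8 were higher than the all-gene median, and their own median of -0.11 equalled it to 2 decimals. The cyclin genes Ccnd1 and Ccnd2 were at 26.9 and 24.1 FPKM and at 23.8 and 20.1 FPKM. Mycn was at 14.0 FPKM in WT and at 9.51 in KO, a log2 ratio of -0.52, and the feedback inhibitor Nkd1 at 5.30 and 5.77 FPKM.

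**Figure D4:**
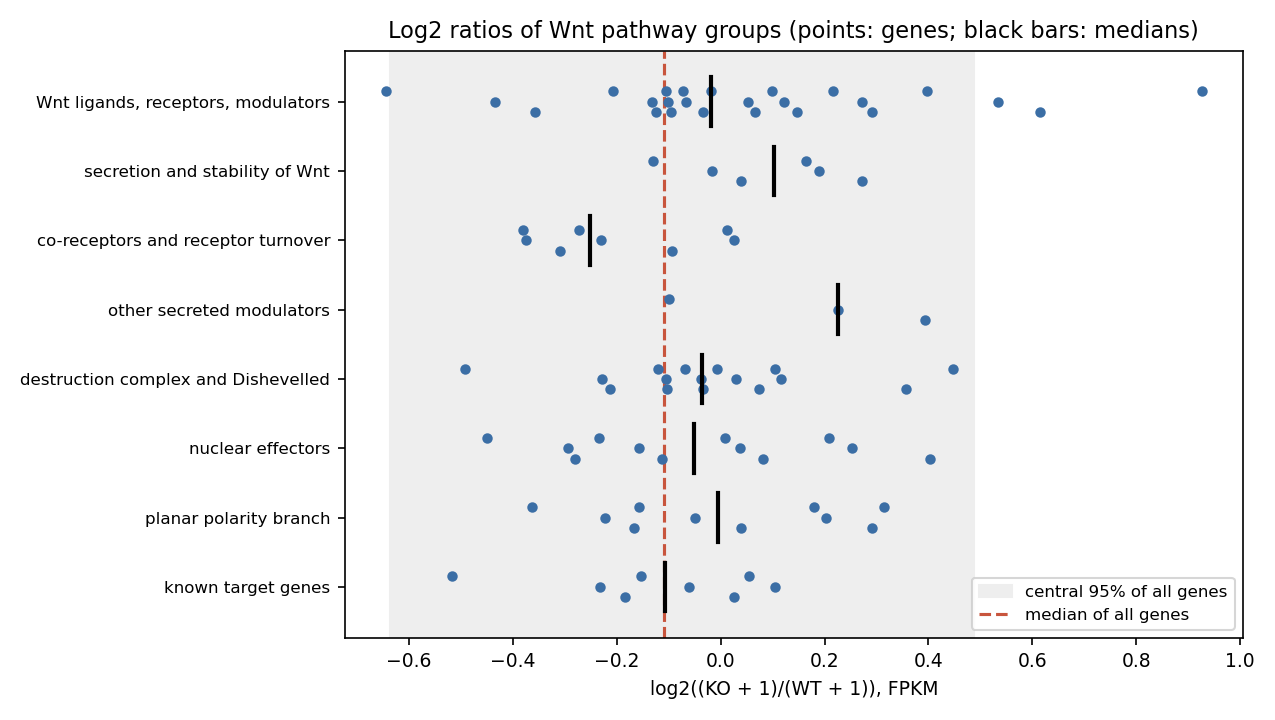
Log2 ratios of KO to WT (horizontal axis, with 1 FPKM added) for the 25 members with a mean of at least 1 FPKM and for 7 lists of other Wnt pathway genes; points are genes, black bars are medians, the dashed line is the median of all genes and the grey band holds the central 95% of all genes. Sfrp2 at 0.93, Fzd1 at 0.61 and Rspo3 at 0.53 lie above the band and Wnt2 at -0.65 below it.

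The DNA before the start sites was read for 32 members that have an entry in the RefSeq promoter table of GRCm38.p6, a different build from the mm9 of the expression values. The 250 bases before each start site were rich in CG dinucleotides, with a median of 21.5 over 40 windows, against 6 over the windows of all genes, and a median GC content of 66.8% against 52.4%. The sequences are those of Sfrp2, Wif1 and Wnt2, which were among the members furthest apart and were chosen after their values were seen, and that of Wnt11, which holds a match to the binding motif of Lef1 and the Tcf proteins. They are written 5′ to 3′ on the strand of the gene, and capitals mark the motif match. Sfrp2 is at chr3:83766071-83766320 on the plus strand, Wif1 at chr10:121033754-121034003 on the plus strand, Wnt2 at chr6:18030446-18030695 on the minus strand and Wnt11 at chr7:98834862-98835111 on the plus strand.
Sfrp2: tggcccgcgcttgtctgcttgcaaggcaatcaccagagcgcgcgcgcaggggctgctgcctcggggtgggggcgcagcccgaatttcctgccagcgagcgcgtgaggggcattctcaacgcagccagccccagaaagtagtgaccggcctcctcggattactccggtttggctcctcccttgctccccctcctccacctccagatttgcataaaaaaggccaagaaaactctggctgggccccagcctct
Wif1: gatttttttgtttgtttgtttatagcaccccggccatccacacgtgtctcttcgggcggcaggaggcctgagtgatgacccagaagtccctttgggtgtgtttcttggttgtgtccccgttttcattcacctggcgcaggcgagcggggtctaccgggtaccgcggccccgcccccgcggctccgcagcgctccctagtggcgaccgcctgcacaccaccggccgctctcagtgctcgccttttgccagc
Wnt2: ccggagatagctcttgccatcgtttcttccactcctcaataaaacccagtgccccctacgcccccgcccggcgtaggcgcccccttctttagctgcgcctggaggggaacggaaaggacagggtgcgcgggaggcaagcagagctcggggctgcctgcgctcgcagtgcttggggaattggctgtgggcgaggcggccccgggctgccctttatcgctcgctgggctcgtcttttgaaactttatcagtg
Wnt11: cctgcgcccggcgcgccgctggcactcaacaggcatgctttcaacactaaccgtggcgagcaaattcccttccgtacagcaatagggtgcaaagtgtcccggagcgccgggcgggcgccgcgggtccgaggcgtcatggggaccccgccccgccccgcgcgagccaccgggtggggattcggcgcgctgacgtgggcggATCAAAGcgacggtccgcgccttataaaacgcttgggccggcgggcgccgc

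The motif was searched on both strands as CTTTG followed by 2 bases that were each A or T, and no other motif was searched. A match was found before 5 of the 32 members (15.6%), against 16.8% of all 27025 genes in the table. The members with a match were Wnt11, Wnt5b, Fzd7, Lef1 and Dkk1, and Dkk1 had 2. Wnt11, Wnt5b and Lef1 have windows at more than 1 start site, and their other windows held no match. The Lef1 match is in its window furthest downstream, at chr3:131156044-131156293, whereas its first window begins at chr3:131110047. For the matching windows of Fzd7 and Lef1, the bases after the start site were not found near the beginning of a GENCODE M21 transcript of the gene. In Wnt11 the match reads CTTTGAT on the opposite strand and begins 51 bases before the start site. Axin2, a well known target, had none in its window, which says only that these letters are not there.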

How the data were processed

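Reads were single and 100 bases long. Per the labels, sequencing of WT aborted during the second mate and its base calls were made manually, possibly with a length filter, and KO went through the usual base calling. The authors deposited 1 FPKM value per gene symbol and library, and their tools were Cufflinks 2.0.2, TopHat2 2.0.6 and Bowtie2 2.0.2 with build mm9, per the submitters' processing notes. Annotation and options are not given in the sources used here.

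The pseudocount and minimum mean were 1 FPKM and the limit 2-fold. Members with a mean of at least 1 FPKM were described singly. For each other pathway list up to 2 genes by mean and up to 2 by distance of log2 ratio from the all-gene median were named. Genes of marker lists were named for some lists only. The red blood cell list and the neural crest and nerve list were not described. Znrf3, Lgr5, Lgr6, Rnf43, Isl1, Alb, Dcn, Dvl1, Dvl3, Pygo2, Scrib, Sost and Dkkl1 were added after their values were seen. So were Nkx2-1, Tbx4, C1qc, Cd68, Emr1, Nr2f2, Bmp10, Cdh5 and Nfatc1. Members and lists were chosen with earlier results of these data known.

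Transcript lengths came from GENCODE M21 transcripts linked to RefSeq (48 members matched, 39 with 1 length, otherwise the shortest). The value of 1 read was the most frequent FPKM times length between 10 and 500, over 14011 genes of 600 to 8000 bases. Read ratios of whole numbers up to 50 were accepted within 0.01%. The procedure was tested on simulated data made with the same lengths, which cannot test whether these lengths match those the authors used. Computations used Python 3.11.15, numpy 2.4.6, pandas 2.3.3, scipy 1.17.1 and matplotlib 3.10.9. Alternatives were 2 other pseudocounts, 2 other filters, 4 scalings and a 1.5-fold limit.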

Additional observations from a re-analysis of the deposited data

How the results depend on the processing

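No paired analysis was possible because there was a single library per genotype, and none could be left out. The count of members at least 2-fold higher in KO was 0, and it was 1 (Sfrp2) with a pseudocount of 0.1 and under each of the 4 scalings, and 2 at a 1.5-fold limit. The count at least 2-fold lower was 0, and it was 1 (Wnt2) with a pseudocount of 0.1 and at the 1.5-fold limit. Members above the median of all genes were 19 of 25, between 18 and 19 of 25 under the other pseudocounts and scalings, 22 of 48 without a filter, and 9 of 10 at a minimum mean of 5 FPKM. Their median log2 ratio of -0.02 became -0.0089 with a pseudocount of 5, 0 without a filter, 0.082 at a minimum mean of 5, 0.063 with median centring, 0.084 with upper-quartile scaling, 0.076 with trimmed-mean scaling and 0.045 with quantile normalization, while the median of all genes became -0.07, 0, -0.13, -0.01, 0.0088, -0.00034 and -0.0068. Since 3 of the 4 scalings multiply all KO values alike, the members' median moves up with that of all genes, and only its distance from the latter describes the members. For the other pathway genes the count above the median of 37 became 22 of 34 at a minimum mean of 5. Their median of -0.05 became -0.029 with a pseudocount of 5, 0 without a filter, -0.035 at a minimum mean of 5, 0.059 with median centring, 0.084 with upper-quartile scaling, 0.075 with trimmed-mean scaling and 0.063 with quantile normalization. For the same reason the sign of small negative log2 ratios was set by the scaling (Fzd2, Fzd6, Fzd8, Wnt5a, Lrp5 and Rspo1), and Ctnnb1 changed sign under quantile normalization. Against the median of all genes, 9 of the 25 members changed sides under at least 1 alternative, and 4 of them did so with a filter on low values in place: Wnt11 and Fzd2 with a pseudocount of 5, Ctnnb1 under quantile normalization, and Frzb with a pseudocount of 0.1 and under the 4 scalings. Depth limits members of few reads: the interval of the FPKM ratio of Sfrp4, from 0.258 to 8.54, held the median ratio of all genes and shows no direction.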
